A study of Mus musculus with 18 samples.

Results

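The difference between the effect of nsHif1a in mouse retina and its effect in 661W cells was measured gene by gene in all 18 RNA-seq libraries of the series, 10 from retina and 8 from 661W, joined by gene identifier. For each of 20999 genes with sufficient counts, the log2 fold change (log2FC) of nsHif1a against eGFP in 661W was subtracted from that in the retina. A positive difference thus means a larger rise or a smaller fall in the retina. A gene was called when the adjusted p-value of this difference, the interaction of vector with system, was below 0.05. This gave 489 genes, 2.33% of those tested, of which 227 (1.08%) had the higher log2FC in the retina and 262 (1.25%) in 661W. These are termed raised more in the retina or in 661W, also where the gene fell in the other system and did not rise in the named one. In all, 3534 genes (16.8%) had an unadjusted p below 0.05.

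The retinas came from mice labelled C57BL/6J, whereas the study's methods name 129S6 mice. The mice were injected subretinally between postnatal days 29 and 32, and retinas were collected 3 weeks later. They had received an adeno-associated virus with the rod opsin (mOP) promoter, and both the nsHif1a group and the eGFP group held 5 libraries. Vector expression was thus limited to rods of the part of the retina that was reached, while the library held RNA of the whole retina. The 661W line is a mouse photoreceptor-like line derived from a retinal tumour, and it was transfected with plasmids that drive nsHif1a or eGFP from the general CMV promoter, with 4 libraries per group collected after 20 hours. Nothing in the labels says whether the 661W libraries came from separate cultures, so their spread may be technical. All mice and cells of the series carried their own Hif1a as well. Tissue, delivery, promoter, duration and cell make-up all differ between the systems and cannot be told apart, and in the bulk retina fewer cells of a type and less RNA per cell cannot be told apart either.

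HIF1A is the oxygen-regulated subunit of the transcription factor HIF1. In normal oxygen, prolyl hydroxylases of the EGLN family mark it for destruction through the VHL protein, and FIH, encoded by Hif1an, blocks its activity. In low oxygen HIF1A pairs with ARNT, binds DNA at the core letters ACGTG or GCGTG, and raises genes for glucose uptake, glycolysis, lactate export, vascular growth and its own hydroxylases. The normoxia-stable form, nsHif1a, escapes this destruction and, according to the paper, also the block by FIH. Rods are known for heavy use of glycolysis even in normal oxygen.

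The stretches below lie upstream of 4 genes and are shown because these genes stand for the 4 patterns described here. Bnip3 rose in both systems and more in 661W, Ppp1r3c rose from 0 counts in 661W, Adm rose in the retina and remained at or near 0 counts in 661W, and Egln3 rose in the retina from a low level. Capitals mark ACGTG or GCGTG on either strand, and CACGTG counts as 2 overlapping matches. The sequences are from RefSeq, 5′ to 3′ on the strand of the gene, and end at the annotated gene start. In GRCm39 they lie at chr7:138511254-138511485 (minus strand) for Bnip3, chr19:36714071-36714254 (minus) for Ppp1r3c, chr7:110226614-110226857 (plus) for Adm and chr12:54250674-54250910 (minus) for Egln3.
Bnip3: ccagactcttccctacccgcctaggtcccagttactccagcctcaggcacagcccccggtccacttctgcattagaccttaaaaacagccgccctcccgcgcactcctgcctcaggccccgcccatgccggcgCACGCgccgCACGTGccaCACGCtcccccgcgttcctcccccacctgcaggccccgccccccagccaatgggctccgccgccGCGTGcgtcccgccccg
Ppp1r3c: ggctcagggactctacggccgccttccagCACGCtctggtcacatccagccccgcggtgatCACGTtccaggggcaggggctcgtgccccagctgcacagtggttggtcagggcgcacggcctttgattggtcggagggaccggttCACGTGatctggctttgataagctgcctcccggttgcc
Adm: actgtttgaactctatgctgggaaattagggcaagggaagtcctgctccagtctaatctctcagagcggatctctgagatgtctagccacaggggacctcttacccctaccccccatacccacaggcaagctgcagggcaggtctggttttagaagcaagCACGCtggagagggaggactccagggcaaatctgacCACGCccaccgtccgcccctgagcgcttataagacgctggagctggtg
Egln3: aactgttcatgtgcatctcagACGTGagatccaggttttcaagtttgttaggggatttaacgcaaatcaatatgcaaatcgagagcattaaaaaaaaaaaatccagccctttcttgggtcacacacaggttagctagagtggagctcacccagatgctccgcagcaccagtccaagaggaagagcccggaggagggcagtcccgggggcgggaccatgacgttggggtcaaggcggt
The 4 stretches hold 5, 4, 2 and 1 matches in the order given. Over the 250 bases before the start, at least 1 match was present in 25 of 33 start sites (75.8%) of genes raised in both systems, for which 25 of 40 genes had a sequence. The share was 53 of 104 start sites (51%) for genes raised in 661W alone and called in the interaction (71 of 99 genes), and 20 of 37 (54.1%) for the corresponding genes of the retina (31 of 47 genes). Among all 32851 start sites in the table the share was 38.6%. A match describes the letters and is no evidence of binding.

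Some libraries stood apart. In 661W, libraries 1 and 2 of each group deviated together from their group means, as did libraries 3 and 4, and when the counts of each pair were summed, leaving 2 libraries per 661W group, 13 genes were called in the interaction, 1 raised more in the retina (Samd1, named after its values were seen) and 12 more in 661W. Among the genes named by rule, Stc1, Atp7b, Tph1, Kctd16, Ppp1r3c, Hif1a, Rnf152, Slc2a3 and Vldlr remained called there. Retinas also differed in Xist, the RNA that silences an X chromosome. Its counts were 19492 to 28595 in the 5 nsHif1a retinas and in eGFP retinas 1 and 2, but 1 to 3 in eGFP retinas 3, 4 and 5. All retinas without Xist were thus in the eGFP group, so Xist class and vector were partly confounded in the retina. With the Xist-positive retinas alone, which left only eGFP retinas 1 and 2 in that group, 54 and 160 genes were called. Whether a call lost in that fit depends on Xist class or on the fewer libraries was not tested. Lens crystallins made up 1.45% to 3.50% of the counts of an eGFP retina and 1.10% to 6.23% with nsHif1a. The nsHif1a retinas 1, 3 and 4 exceeded every eGFP retina, so the crystallin level partly went with the vector. With the crystallin level as a covariate, 102 and 117 genes were called. Single libraries also set the counts. In all 3097 and 3113 genes were called without nsHif1a 661W library 3 or 4, while 316, 317, 248, 296 and 300 were called without eGFP 661W library 1 or 2, eGFP retina 4 or 5, or nsHif1a retina 3. Library totals ranged from 12898220 to 17809585 counts, at which 3 counts equal 0.163 to 0.237 CPM. Values of named genes in these fits are given below where a call was lost with the Xist-positive retinas alone or with the crystallin covariate.

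**Figure D1:**
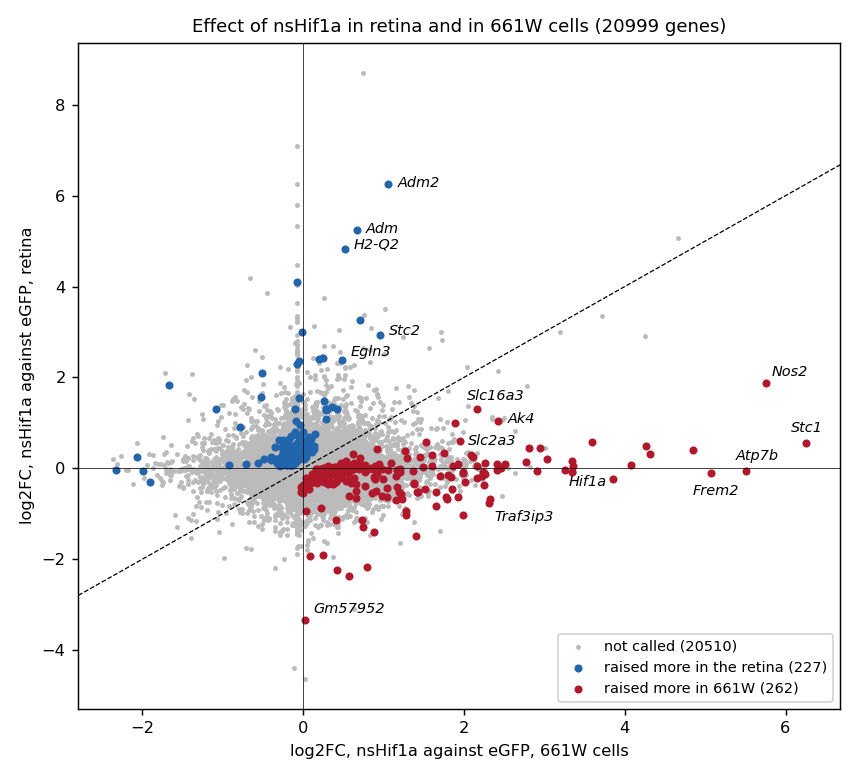
Each point is 1 of 20999 genes, with the log2FC of nsHif1a against eGFP in 661W on the x axis and in the retina on the y axis. The dashed line marks equal effects, and the 227 blue and 262 red genes are those called in the interaction. The red genes reach furthest along the x axis and the blue genes along the y axis. The vertical column near 0 holds genes with no count in 661W, for which the fit gives -0.08.

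Hif1a itself, the targeted gene (chromosome 12, 73948149 to 73996321, plus strand, GRCm39), was raised more in 661W. Its count holds native and vector transcripts alike. In the retina it had 9064, 10174, 11286, 9650 and 8713 counts with eGFP and 8565, 10846, 10283, 10013 and 10909 with nsHif1a, and the groups overlapped. In 661W it rose from 2527, 2314, 2735 and 2183 to 21721, 17668, 33418 and 30804 counts, with no overlap, as was the case for 10.5% of all genes tested in 661W and 5.43% in the retina. In CPM, the counts relative to library size after TMM scaling, the means were 689 ± 27.3 and 712 ± 32.2 in the retina (SD, n = 5), and 150 ± 5.62 and 1500 ± 377 in 661W (SD, n = 4). The log2FC was 0.06 (standard error (SE) 0.10) in the retina and 3.35 (SE 0.12) in 661W, a difference of -3.29 (SE 0.15, 95% interval -3.61 to -2.98, adjusted p = 3.5e-10 in limma). Without a filter on low counts its adjusted p was 0.22 at a difference of -3.35. By Western blot, the paper reports clearly more HIF1A protein in extracts of whole retinas that received nsHif1a. The overlapping RNA counts in the retina therefore do not show that the vector was not expressed there.

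Genes were then sorted by the system in which they responded, using adjusted p below 0.05 and an absolute log2FC above 0.5 within the system. In the retina 256 genes (1.22%) rose and 196 (0.933%) fell, and in 661W 274 (1.3%) rose and 31 (0.148%) fell, 1.45% of genes in either direction. Both systems raised 40 genes (0.19%), and 8 of these 40 were called in the interaction. Of 216 genes called up in the retina and not called in 661W, 47 (21.8%) had a difference that passed the test, and of 232 called up in 661W and not in the retina, 99 (42.7%) did. For the other genes of these sets the call in a single system was not accompanied by a called difference. Most of the interaction genes belonged to neither set. For 171 of the 227 genes raised more in the retina neither single effect passed both thresholds, and 156 of these had opposite signs in the 2 systems at a median difference of 0.375. Among the 262 raised more in 661W the corresponding numbers were 135 and 121 at a median of -0.451.

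The 47 genes raised in the retina alone had a median difference of 0.935 (0.888 over the 43 with counts in every group), and 37 were protein coding. The 99 genes raised in 661W alone had a median of -1.33 (-1.20 over the 90 with counts in every group), and 86 were protein coding. A further 19 genes, counted as raised more in 661W, fell in the retina alone. Another 8, counted as raised more in the retina, fell in 661W alone. Of the 47 retinal genes, 12 remained called with the Xist-positive retinas alone, 32 with the crystallin covariate and 1 with the 661W libraries summed in pairs. Of the 99 genes of 661W, 49, 61 and 9 remained called in the same fits. Every gene of both sets kept its sign in these 3 fits. Blocking the 661W libraries by number gave 405 genes raised more in 661W in place of 262, and 530 in place of 274 that rose within 661W.

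Starting levels in the eGFP libraries described the 2 directions differently. A gene was termed silent in a system when no eGFP library exceeded 3 counts, high from a mean of 10 CPM, and low otherwise. Of the 262 genes raised more in 661W, 195 (74.4%) had a higher mean CPM in eGFP retinas than in eGFP 661W cells, against 55.1% of all genes tested. Of the 227 raised more in the retina, 170 (74.9%) were higher in eGFP 661W cells, against 44.9% of all genes. The eGFP libraries enter both the level and the difference, so these shares are descriptions without a test.

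Of the genes raised more in 661W, 38 were silent there under eGFP, and 30 of these 38 also passed both thresholds as raised in 661W. With silence defined as 0 counts in every eGFP library of 661W, 11 genes raised more in 661W were silent. In the opposite direction, 5 genes raised more in the retina were silent in eGFP retinas. These were Adm2, Aplnr, Gm9655, Gm66184 and Gm19945, the last named after its values were seen. Of 63 genes that were silent in the retina and high in 661W none was called. A gene silent in both eGFP groups could pass the count filter only through nsHif1a libraries, and 2 such genes were tested, of which Adm2 was called.

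Among the 1794 genes high in the retina and low in 661W, 45 (2.51%) were raised more in 661W and 4 (0.223%) more in the retina. The mirror class of 1672 genes, low in the retina and high in 661W, held 5 (0.299%) and 17 (1.02%). Genes high in both systems numbered 8494 and gave 138 (1.62%) and 187 (2.2%), raised more in 661W and in the retina, at median absolute differences of 0.446 and 0.392. Precision followed level, since the median SE of the difference was 0.0978 for genes high in both and 0.612 for genes low in the retina and silent in 661W, so a given difference was harder to detect at low levels. Levels in CPM depend on transcript length, and with high defined as 10 CPM per kilobase, 16 genes raised more in 661W and 119 raised more in the retina were high in both.

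**Figure D2:**
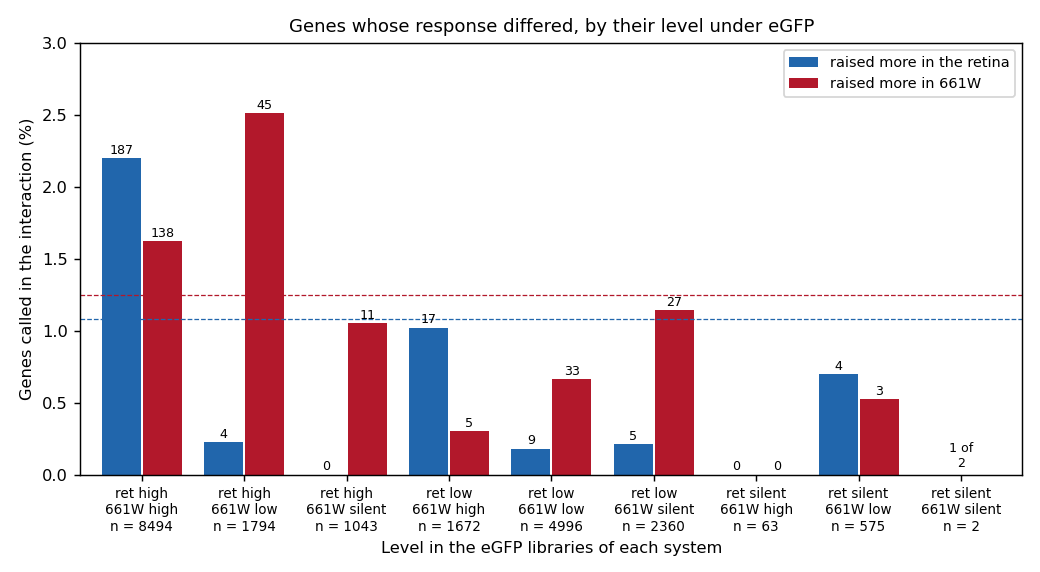
Bars give the share of tested genes that were called, in percent, for each pair of levels in the eGFP libraries of retina and 661W, with the number of called genes above each bar and dashed lines at 1.08% and 1.25% for all genes. Genes high in the retina and low in 661W were mostly raised more in 661W (45 against 4), and the mirror class mostly more in the retina (17 against 5).

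The genes raised from silence in 661W had the largest negative differences. Stc1 (chromosome 14, 69266575 to 69279253, plus strand) encodes stanniocalcin 1, a secreted glycoprotein. It had 0, 1, 0 and 0 counts in eGFP 661W libraries and 60, 29, 71 and 56 with nsHif1a, a ratio of 205 with an exact counting interval of 36.4 to 8140. In the retina it went from 102, 100, 130, 156 and 104 to 185, 236, 128, 154 and 170 counts, and the groups overlapped. The difference was -5.70 (SE 0.53, adjusted p = 9.7e-06), and the retina still passed both thresholds at a log2FC of 0.56.

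Atp7b, a copper-transporting ATPase (chromosome 8, 22482801 to 22550352, minus strand), had 2, 0, 2 and 2 counts in eGFP 661W cells and 58, 45, 133 and 83 with nsHif1a. In the retina its counts were 218 to 326 with eGFP and 208 to 281 with nsHif1a, with a log2FC of -0.06. It was thus raised in 661W alone, by 5.51 on the log2 scale (SE 0.51), and the difference of -5.57 was called in each of the 18 fits that left out a library. Both Stc1 and Atp7b remained called with the 661W libraries summed in pairs.

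Frem2, an extracellular matrix protein, had no count in the 4 eGFP 661W libraries and 10, 9, 34 and 20 with nsHif1a, which was at least 22.8-fold higher against 3 counts over the group. Its retinal counts lay between 105 and 144 with eGFP and between 80 and 171 with nsHif1a. Kctd16, an auxiliary subunit of GABA-B receptors, went from no count to 5, 6, 7 and 10 in 661W, at least 8.90-fold higher, and was at 9.09 ± 1.29 and 7.69 ± 1.03 CPM in the retina. Both had retinal groups that overlapped. Tph1, which makes the serotonin precursor, had 1, 1, 1 and 0 counts in eGFP 661W cells and 28, 38, 48 and 29 with nsHif1a, a ratio of 45.2 (exact counting interval 15.2 to 222). In the retina Tph1 had 15 to 24 and 21 to 27 counts.

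Tafa2, a secreted protein of the nervous system, had 2 counts over the eGFP 661W libraries and 5, 10, 24 and 25 with nsHif1a, a ratio of 30.4 (exact counting interval 8.07 to 256), against 17.2 ± 2.50 and 17.8 ± 1.37 CPM in the retina. Car9, a carbonic anhydrase of the cell surface and a classical HIF1 target, had 1 count over the eGFP group and 13, 6, 8 and 4 with nsHif1a in 661W, a ratio of 29.4 (4.9 to 1200), while retinal libraries held 8 to 24 and 5 to 30 counts. Its difference of -3.43 had an adjusted p of 0.022, which rose to 0.063 with Xist-positive retinas alone and 0.061 with the crystallin covariate. Gpr35, a receptor of the G-protein-coupled class, was low in both systems and went from 1, 6, 5 and 3 to 44, 46, 111 and 100 counts in 661W. With the 661W libraries summed in pairs, the adjusted p was 0.12 for Frem2, 0.17 for Tafa2, 0.14 for Gpr35 and 0.37 for Car9.

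Other genes were high in the retina and started far lower in 661W. Under eGFP, Mgarp and Rnf152 were low there, and Vldlr was just above the limit of 10 CPM for high. Mgarp, a protein of neuronal mitochondria, was at 883 ± 26.7 CPM in eGFP retinas and 967 ± 72.1 with nsHif1a, and rose in 661W from 5, 2, 2 and 2 to 26, 18, 48 and 38 counts. Its difference was -3.20 (SE 0.44, adjusted p = 0.0011). Without a count filter the adjusted p of Mgarp was 0.54, and with summed 661W pairs it was 0.14. Rnf152, a ubiquitin ligase of lysosomes, was at 81.5 ± 3.50 and 78.1 ± 3.63 CPM in the retina and went from 11, 5, 15 and 11 to 62, 56, 92 and 106 counts in 661W. Rnf152 remained called in every fit run. Vldlr, the very low density lipoprotein receptor, was at 339 ± 15 and 415 ± 10.8 CPM in the retina and at 10.3 ± 1.62 and 30.1 ± 6.56 CPM in 661W. The Vldlr difference of -1.31 (SE 0.15) was likewise called in every fit, and its retinal groups did not overlap although its retinal log2FC of 0.30 was under the threshold.

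**Figure D3:**
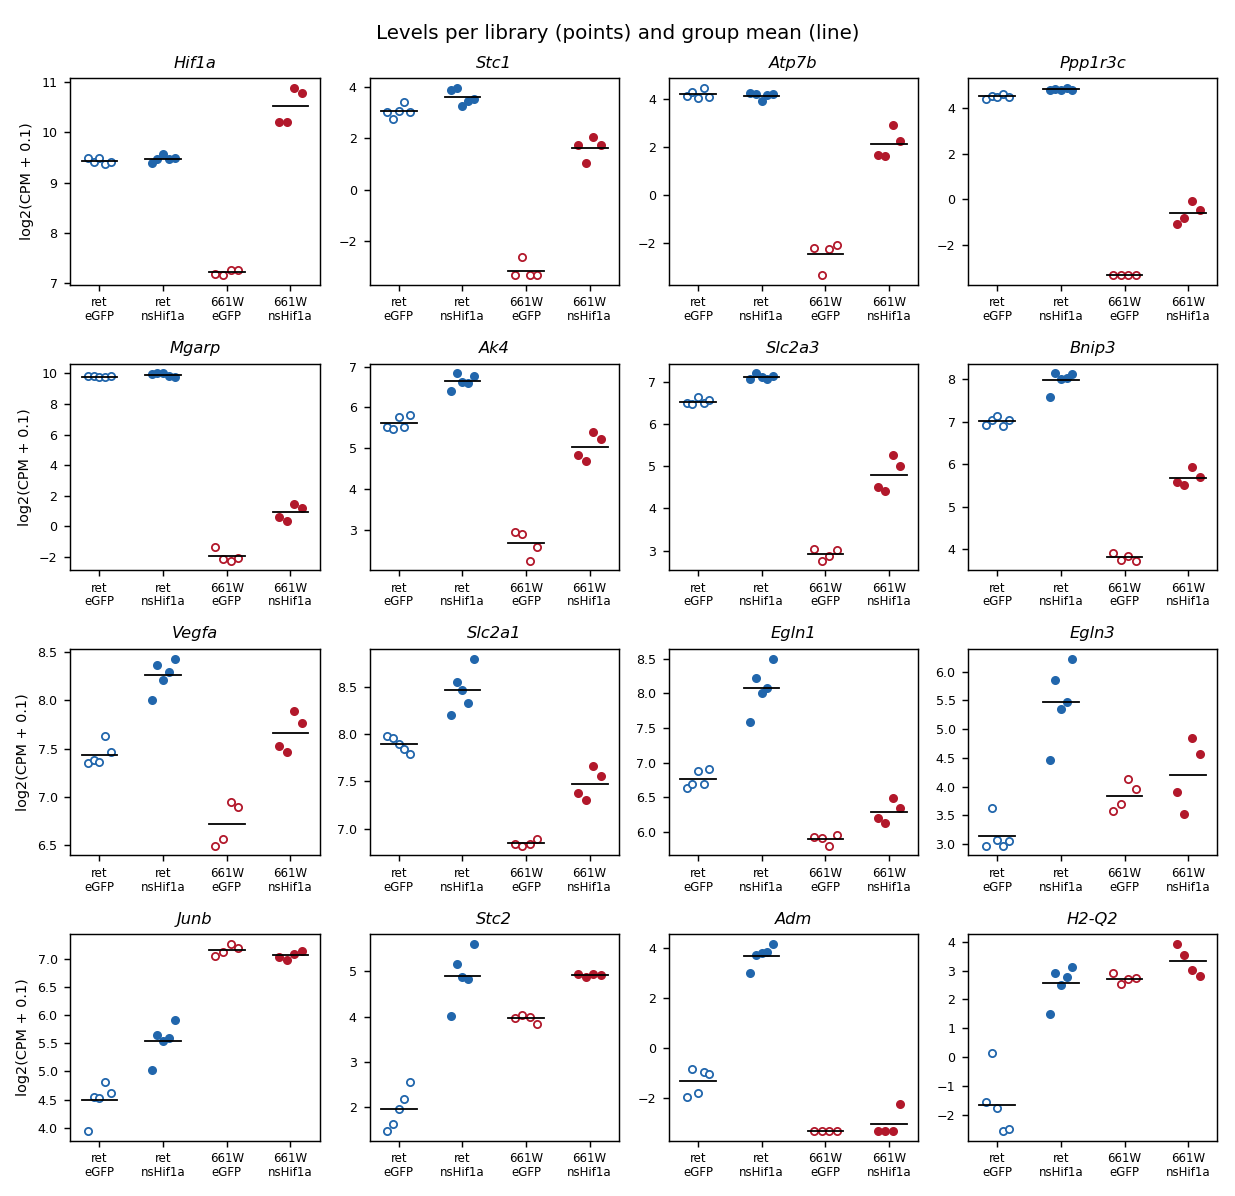
Points are single libraries and lines group means, for 16 genes, on a log2 scale of CPM plus 0.1, with open points for eGFP and filled points for nsHif1a, blue for retina (5 libraries per group) and red for 661W (4 per group). Hif1a, Atp7b and Mgarp separate widely by vector in 661W alone, Vegfa and Slc2a1 in both systems, and Junb and Adm in the retina alone.

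Genes of glucose uptake, glycolysis and lactate handling showed a split within the list. This list and those below were chosen with earlier results of these data known, so their shares are descriptions without a test. Of 23 tested, 4 were raised more in 661W and 3 more in the retina, 30.4% against a background of 2.33%, at a median difference of 0.03 against -0.0018 for all genes. Both systems shifted most members upward, since 22 of 23 had a log2FC above 0 in each, and 6 in the retina and 8 in 661W passed both thresholds. The genes raised more in 661W were Slc2a3, Pdk1, Slc16a3 and Eno2. Slc2a3, the neuronal glucose transporter, went from 140, 108, 127 and 113 to 419, 319, 679 and 558 counts in 661W and from 92.8 ± 4.55 to 139 ± 5.83 CPM in the retina. Its difference of -1.36 (SE 0.18, adjusted p = 0.00075) was called in every fit, summed pairs included.

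Pdk1, the kinase that holds pyruvate out of mitochondria, rose from 9.59 ± 1.66 to 27.5 ± 0.220 CPM in 661W and from 69.8 ± 4.03 to 106 ± 16.1 CPM in the retina, a difference of -0.95 (SE 0.17). Slc16a3, the lactate exporter MCT4, rose from 23.4 ± 3.02 to 104 ± 19.4 CPM in 661W and from 71.0 ± 2.70 to 175 ± 34.1 CPM in the retina. The difference of -0.86 (adjusted p = 0.031) was lost without eGFP 661W library 3, without eGFP retina 4 or 5 and without nsHif1a retina 3 or 4, with adjusted p of up to 0.066. It was also lost with Xist-positive retinas alone (0.12) and with the crystallin covariate (0.078). Eno2, the neuronal enolase, rose in 661W from 16.5 ± 0.621 to 28.1 ± 1.05 CPM and stood at 638 ± 35 and 665 ± 54.2 CPM in the retina, with overlapping retinal groups. The difference of Eno2 was -0.70 (adjusted p = 0.0041), and without a count filter the adjusted p was 0.43.

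Members with a larger rise in the retina were housekeeping enzymes at high levels in both systems. Gpi1, glucose-6-phosphate isomerase, went from 549 ± 15.4 to 731 ± 26.2 CPM in the retina and from 271 ± 3.06 to 294 ± 18.9 CPM in 661W, and the difference was 0.29 (SE 0.05, adjusted p = 0.011). Eno1, the general enolase, had a difference of 0.35 (adjusted p = 0.033) and Gapdh one of 0.29 (adjusted p = 0.048). Eno1 lost its call without eGFP retina 3, 4 or 5 or nsHif1a retina 2, at adjusted p of up to 0.080, and Gapdh lost its call in 11 of 18 fits without a library, at up to 0.096, among them those without eGFP retina 3, 4 or 5 or without 1 of the libraries 1 and 2 of either 661W group. Gapdh was also not called with the replicate block in 661W (adjusted p = 0.056). Both lost their call with Xist-positive retinas alone, at 0.21 for Eno1 and 0.16 for Gapdh, and Gapdh had 0.061 with the crystallin covariate.

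By contrast, Slc2a1, the widespread glucose transporter GLUT1, rose by about the same factor. It went from 238 ± 13.4 to 357 ± 57.5 CPM in the retina and from 115 ± 2.60 to 179 ± 20.3 CPM in 661W, a difference of -0.07 with a 95% interval of -0.32 to 0.19. Its sign turned under the crystallin covariate (0.08) and without nsHif1a 661W library 3 or 4 (0.07 in each case). Tpi1, named after its values were seen, had a log2FC of 0.39 in both. Phospho1, a phosphatase, and Gem, a small GTPase, likewise rose in both, with differences of 0.09 (95% interval -0.23 to 0.41) and -0.03 (-0.34 to 0.28).

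Glycogen genes gave 3 calls among 14 (21.4%, against 2.33% of all genes), all raised more in 661W, as were 1.25% of all genes. Ppp1r3c, which brings protein phosphatase 1 to glycogen, had no count in eGFP 661W cells and 7, 7, 15 and 11 with nsHif1a, at least 12.6-fold higher against 3 counts over the group. In the retina it went from 270, 352, 356, 364 and 288 to 355, 439, 383, 422 and 417 counts, and from 22.9 ± 1.29 to 28.4 ± 0.887 CPM without overlap, while its log2FC of 0.31 lay under the threshold. Epm2a, the glycogen phosphatase laforin, went from 1, 3, 4 and 4 to 25, 22, 25 and 34 counts in 661W and from 63.6 ± 2.72 to 74.0 ± 8.56 CPM in the retina. Stbd1, a glycogen-binding protein, differed by -0.65 (SE 0.12) and was low in the retina at 3.77 ± 0.368 and 3.88 ± 0.206 CPM. Another regulatory subunit, Ppp1r3b, rose in both with a difference of 0.15 (95% interval -0.35 to 0.64). With the 661W libraries summed in pairs, Ppp1r3c was called, and the adjusted p was 0.14 for Epm2a and 0.16 for Stbd1.

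Genes of oxygen sensing and the HIF subunits gave 4 calls among 12 tested (33.3%, against 2.33% of all genes). Egln1 and Egln3 were raised more in the retina and Hif1a and Vhl more in 661W. Hif1a is the delivered gene, and its count holds vector transcripts, so its call is no response of the list. Egln1, the main HIF prolyl hydroxylase, rose in the retina from 1260, 1551, 1833, 1515 and 1547 to 2459, 4543, 3490, 3830 and 5476 counts. In 661W it had 1043, 968, 981 and 878 counts with eGFP and 1354, 1048, 1586 and 1421 with nsHif1a. The groups did not overlap in either system, and the difference was 0.89 (SE 0.18, adjusted p = 0.017). Without a count filter the adjusted p of Egln1 was 0.15.

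Egln3, a hydroxylase that HIF1 raises strongly, went from 98, 185, 130, 114 and 106 to 280, 881, 550, 624 and 1131 counts in the retina. Its 661W counts overlapped, at 203, 208, 309 and 219 with eGFP and 275, 171, 507 and 413 with nsHif1a. The difference was 1.91 (SE 0.48, adjusted p = 0.043). That call was lost in 10 of 18 fits without a library, at adjusted p of up to 0.083, among them those without eGFP retina 1, 3, 4 or 5, nsHif1a retina 3 or 4, eGFP 661W library 3 or 4 or nsHif1a 661W library 1 or 2, and the adjusted p was 0.21 with Xist-positive retinas alone and 0.15 with Xist class as a covariate. Vhl, which binds hydroxylated HIF1A, had a small difference of -0.36 (adjusted p = 0.021), with 26.6 ± 1.28 and 38.6 ± 2.29 CPM in 661W. Its adjusted p was 0.072 with Xist-positive retinas alone and 0.061 with the crystallin covariate. The other 8 genes of the list, among them Arnt, Epas1 and Hif1an, were not called.

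Mitochondrial HIF targets gave 3 calls of 9 (33.3%, against 2.33% of all genes), namely Mgarp, Ak4 and Bnip3, all raised more in 661W. Within each system 5 members rose, against 1.22% of all genes in the retina and 1.3% in 661W. Ak4, a mitochondrial adenylate kinase, rose from 132, 118, 82 and 83 to 522, 384, 746 and 656 counts in 661W and from 49.4 ± 5.62 to 100 ± 11.4 CPM in the retina (difference -1.40, SE 0.24). Bnip3, a receptor for mitophagy, rose from 14.0 ± 0.831 to 51.5 ± 6.66 CPM in 661W and from 128 ± 8.37 to 253 ± 36.9 CPM in the retina, a difference of -0.90 (SE 0.17, adjusted p = 0.014). Higd1a, which acts on respiratory chain complexes, differed by 0.07 (95% interval -0.26 to 0.40) and turned sign without nsHif1a 661W library 1 (-0.09) or 2 (-0.08). Without a count filter the adjusted p of Bnip3 was 0.14, and with summed 661W pairs it was 0.16 for Ak4 and 0.30 for Bnip3.

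Growth brakes and HIF feedback genes gave 3 calls of 11 (27.3%, against 2.33% of all genes), again raised more in 661W. Ndrg1, a stress-induced protein of differentiation, rose from 75.2 ± 4.33 to 179 ± 13.9 CPM in 661W and from 264 ± 22.8 to 342 ± 26.2 CPM in the retina, a difference of -0.90 (SE 0.10, adjusted p = 8.5e-05). Bhlhe40, a transcriptional repressor, differed by -0.50 (SE 0.10, adjusted p = 0.014), and Kdm4b, a histone demethylase, by -0.31 (SE 0.07, adjusted p = 0.026). The Kdm4b value reached 0.061 with Xist-positive retinas alone and 0.073 with the crystallin covariate. All 11 members had a log2FC above 0 in both systems. None of the 11 collagen hydroxylases and lysyl oxidases was called, and P4ha2 and Plod2, which modify collagen, rose in both by differences of 0.06 (95% interval -0.18 to 0.31) and 0.08 (-0.20 to 0.37).

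Among 19 secreted vasoactive and angiogenic factors, 4 were raised more in the retina, against 1.08% of all genes, and 1, Stc1, more in 661W, against 1.25%. Within the systems 8 rose in the retina (1.22% of all genes did) and 4 in 661W (1.3%). The median difference was 0.27, or -0.01 over the 16 genes with counts in every group. Adm (chromosome 7, 110226858 to 110229027, plus strand) encodes adrenomedullin, a vasodilating peptide. It rose in the retina from 2, 7, 3, 6 and 5 to 100, 202, 185, 199 and 269 counts, while 661W libraries had no count with eGFP and 0, 0, 0 and 2 with nsHif1a. Adm2 (chromosome 15, 89206923 to 89209380), a related peptide, rose in the retina from 0, 0, 0, 0 and 1 to 21, 58, 49, 52 and 138 counts, a ratio of 318 with an exact counting interval of 56.6 to 12600. In 661W it had no count with eGFP and 0, 0, 2 and 1 with nsHif1a.

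The fitted differences were 4.59 for Adm (SE 0.85) and 5.21 for Adm2 (SE 0.97), each with adjusted p = 0.011. Since both 661W groups were at or under 3 counts, no fold can be given there and these fitted values depend on the prior count. Neither was called by edgeR's quasi-likelihood test, with adjusted p of 0.98 for Adm and 1.0 for Adm2, nor with summed 661W pairs (0.56 and 0.54), and DESeq2 gave 0.089 for Adm. Edn2 and Fgf2, named after their values were seen, rose in the retina by 1.94 and 1.89 on the log2 scale, and their differences of 2.01 (adjusted p = 0.52) and 2.17 (adjusted p = 0.21) were not called.

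Stc2, stanniocalcin 2 (chromosome 11, 31307307 to 31320124, minus strand), was the sole gene raised in both systems and more in the retina. Its retinal counts went from 34, 45, 60, 65 and 75 to 206, 543, 400, 401 and 736, and its 661W counts from 271, 265, 279 and 203 to 566, 443, 543 and 531. Under nsHif1a the 2 systems were at similar means of 31.6 ± 11.9 CPM in the retina and 30.3 ± 0.569 CPM in 661W. The difference was 1.97 (SE 0.37, adjusted p = 0.011), and the adjusted p was 0.051 with Xist-positive retinas alone and 0.21 with summed 661W pairs. Stc1, its paralogue, thus had the opposite sign of difference.

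Lif, a cytokine that supports photoreceptors, went from 14 to 25 counts with eGFP to 26 to 63 with nsHif1a in the retina, and from 17.3 ± 2.25 to 20.8 ± 0.843 CPM in 661W. Its difference of 1.22 (adjusted p = 0.027) was lost without eGFP retina 3 or 4 or nsHif1a retina 3, at adjusted p of up to 0.063, and was 0.17 with Xist-positive retinas alone and 0.066 with the crystallin covariate. Vegfa, the main angiogenic growth factor, rose alike, from 173 ± 14.6 to 307 ± 34.0 CPM in the retina and from 107 ± 16.7 to 203 ± 28.4 CPM in 661W. The Vegfa difference was -0.15 with a 95% interval of -0.46 to 0.16, and it was 0.02 without nsHif1a 661W library 3 or 4.

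**Figure D4:**
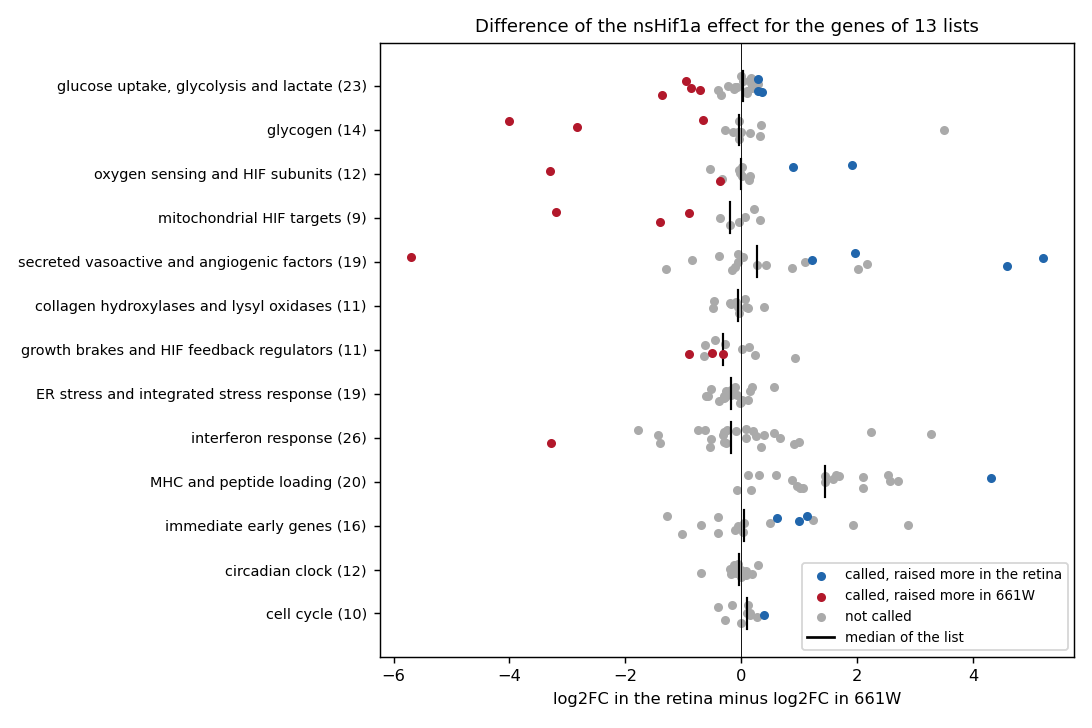
Each point is 1 gene of 13 lists, placed by its difference (log2FC in the retina minus log2FC in 661W), with black bars at list medians and the number of genes tested in parentheses. Called genes of the glycogen, mitochondrial and growth brake lists lie below 0, and the MHC list lies above 0 for 19 of 20 genes with 1 of them called.

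Inducible nitric oxide synthase, Nos2, was raised in both systems, but from near silence and unequally. Its counts rose from 1, 3, 2 and 2 to 173, 135, 159 and 105 in 661W and from 2, 8, 3, 1 and 1 to 4, 9, 7, 14 and 20 in the retina, where the groups overlapped. The difference was -3.89 (SE 0.61, adjusted p = 0.0037), and 0.088 with summed 661W pairs. Of 26 interferon response genes, 5 rose in 661W (1.3% of all genes did) and 0 in the retina (1.22%). Most members shifted upward in both systems, with a log2FC above 0 for 25 in 661W and 21 in the retina. Their median log2FC was 0.48 in 661W and 0.35 in the retina, against -0.0042 and 0.0046 for all genes. In the interaction 1 of the 26 was called (3.85%, against 2.33% of all genes). This was Ifnb1, interferon beta, which had no count in any of the 10 retinas and went from 3, 3, 9 and 8 to 50, 41, 42 and 88 counts in 661W. For Ifnb1 no retinal fold can be given, edgeR did not call the difference (adjusted p = 1.0), and the adjusted p was 0.063 with Xist-positive retinas alone.

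MHC and peptide loading genes had a median difference of 1.44, or 1.06 over the 17 with counts in every group, against -0.0018 for all genes. Within the systems 5 of 20 rose in the retina (1.22% of all genes did) and 0 in 661W (1.3%). Only H2-Q2 was called in the interaction, 1 of 20 (5%, against 2.33% of all genes). It rose from 3, 15, 3, 1 and 1 to 35, 114, 75, 96 and 131 counts in the retina. Its 661W counts were 128, 92, 114 and 93 with eGFP and 279, 172, 142 and 121 with nsHif1a. The difference was 4.32 (SE 0.62, adjusted p = 0.0019), with 0.082 for Xist-positive retinas alone. H2-Q2 belongs to a family of near-identical genes, among which reads can be misassigned. A log2FC above 0 in the retina was found for 11 of 11 microglia markers, 18 of 19 lens markers and 10766 of all 20999 genes. Of the microglia markers 1, Tyrobp, passed both thresholds there (adjusted p = 0.036 in limma). None was called in the interaction, and their summed level was 62.1 to 267 CPM in eGFP retinas and 98.7 to 282 CPM with nsHif1a. In 661W C1qa, C1qb, C1qc, Trem2 and Tyrobp were at 0 in all libraries. The part of these cells in the MHC values was not tested.

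Immediate early genes gave 3 calls of 16 (18.8%, against 2.33% of all genes), all raised more in the retina. Junb, a subunit of the AP-1 transcription factor, rose in the retina from 22.8 ± 4.70 to 47.5 ± 9.98 CPM and was at 143 ± 9.11 and 133 ± 6.62 CPM in 661W, a difference of 1.13 (SE 0.18, adjusted p = 0.0037). Fosl2, another AP-1 subunit, went from 121, 156, 179, 214 and 193 to 232, 497, 406, 474 and 570 counts in the retina and from 58.6 ± 3.21 to 70.9 ± 3.28 CPM in 661W. Its difference was 0.99 (adjusted p = 0.017). Ier3, an early response gene linked to survival, differed by 0.62 (adjusted p = 0.027), which was lost without eGFP retina 4 or 5 (up to 0.059), with Xist-positive retinas alone (0.17) and with the crystallin covariate (0.058). The repressor Atf3 had a difference of -0.10 (95% interval -0.87 to 0.66), whose sign turned without eGFP 661W library 1 (0.0037) or 2 (0.07), nsHif1a 661W library 1 (0.04) or 2 (0.03) or nsHif1a retina 1 (0.06).

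None of 19 ER stress genes was called in the interaction. Within the systems 8 rose in 661W (1.3% of all genes did) and 2 in the retina (1.22%). A log2FC above 0 was found for 19 of 19 in 661W and 18 in the retina, at medians of 0.41 and 0.31. No difference between the systems was shown for any of the 19. Of 10 cell cycle genes Ccnd1, cyclin D1, was called at 0.40 (SE 0.08, adjusted p = 0.017), with 0.082 for Xist-positive retinas alone. None of 12 circadian clock genes was called. Among photoreceptor markers 0 of 21 rod genes and 0 of 12 cone genes were called. Of these, 8 rod and 9 cone genes did not exceed 3 counts in any eGFP 661W library. Nrl and Nr2e3, transcription factors that specify rods, were among 8 rod genes at 0 in 661W with nsHif1a. With eGFP 0 rod genes were without a count in all 661W libraries. In each 661W group, however, 8 rod genes did not exceed 3 counts in any library. None of the 21 rose or fell in 661W by both thresholds, so no loss of rod genes was shown by these zeros. The summed rod level was 569.639 to 580.578 CPM in 661W with eGFP. Only 1 of the 21 genes was high there and 12 were low. Each low gene had a mean under 10 CPM, so most of this sum came from the 1 high gene. The sum thus does not describe the rod genes as a set in 661W. In the retina the summed rod level was 66382 to 73924.7 CPM with eGFP and 53524.2 to 70053 CPM with nsHif1a. Slc6a9, a glycine transporter listed with inner retinal neurons, rose in 661W alone from 35.3 ± 2.85 to 67.1 ± 16.3 CPM (difference -0.84, adjusted p = 0.011). Flt1, a VEGF receptor listed with endothelium, differed by -0.65 (adjusted p = 0.022), which was lost without eGFP 661W library 1 or 2 or eGFP retina 4 (up to 0.072), with Xist-positive retinas alone (0.12) and with the crystallin covariate (0.063).

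Opposite responses were found in 2 genes (0.00952%) that fell in the retina and rose in 661W. Traf3ip3, a regulator of immune signalling, went from 219, 219, 259, 311 and 222 to 157, 151, 141, 130 and 160 counts in the retina, without overlap, and from 1, 0, 0 and 0 to 4, 5, 1 and 4 in 661W. Its 661W ratio was 13.3 with an exact counting interval of 2.02 to 562. Mc1r, a melanocortin receptor, went from 75, 79, 79, 95 and 75 to 47, 58, 41, 43 and 72 counts in the retina, and from no count to 5, 3, 2 and 1 in 661W, at least 3.48-fold higher. With summed 661W pairs the adjusted p was 0.27 for Traf3ip3 and 0.15 for Mc1r.

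Several named genes had few counts or depended on few libraries. Uts2r, the urotensin receptor, and the non-coding gene Gm35215 rose in the retina to 19 to 39 and 16 to 69 counts and had 0 counts in all 661W libraries, so no 661W fold can be given, and edgeR called neither difference (adjusted p = 1.0 for each). Zdhhc14, a palmitoyl transferase, fell in 661W from 1, 2, 5 and 1 counts to none, and its call was lost without eGFP 661W library 2 or 3 (up to 0.051). Gm57952, a non-coding gene on chromosome Y, had 84, 62, 18, 128 and 29 counts in eGFP retinas and 4, 2, 3, 1 and 226 with nsHif1a. Its counts did not follow Xist class, since eGFP retinas 1 and 2 and nsHif1a retina 5 were Xist-positive. The reason was not tested. The Gm57952 difference of -3.35 (adjusted p = 0.048 in limma) was lost in 10 of 18 fits without a library. Among them was each fit without 1 of the nsHif1a retinas 1 to 4 (up to 0.11). The receptor Aplnr, the chemokine Ccl8 and the non-coding genes Gm42923, Gm53543 and 1700001L05Rik lost their call in 8, 11, 6, 5 and 3 such fits. Leaving out eGFP 661W library 1 or 2 ended the call of each of these and of Gm57952 and Gm35215. With the replicate block in 661W the adjusted p was 0.055 for Aplnr, 0.064 for Ccl8, 0.054 for Gm42923, 0.053 for Gm53543 and 0.060 for Gm57952. With Xist-positive retinas alone it was 0.27 for Aplnr, 0.57 for Ccl8, 0.20 for Gm42923, 0.14 for Gm53543, 0.19 for Gm66184, 0.078 for Gm35215, 0.061 for Gm37795, 0.061 for Zdhhc14 and 0.090 for 1700001L05Rik. With the crystallin covariate it was 0.087 for Aplnr, 0.077 for Ccl8, 0.069 for Gm42923, 0.10 for Gm53543, 0.29 for Gm57952, 0.068 for Gm9655 and 0.053 for Zdhhc14.

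**Figure D5:**
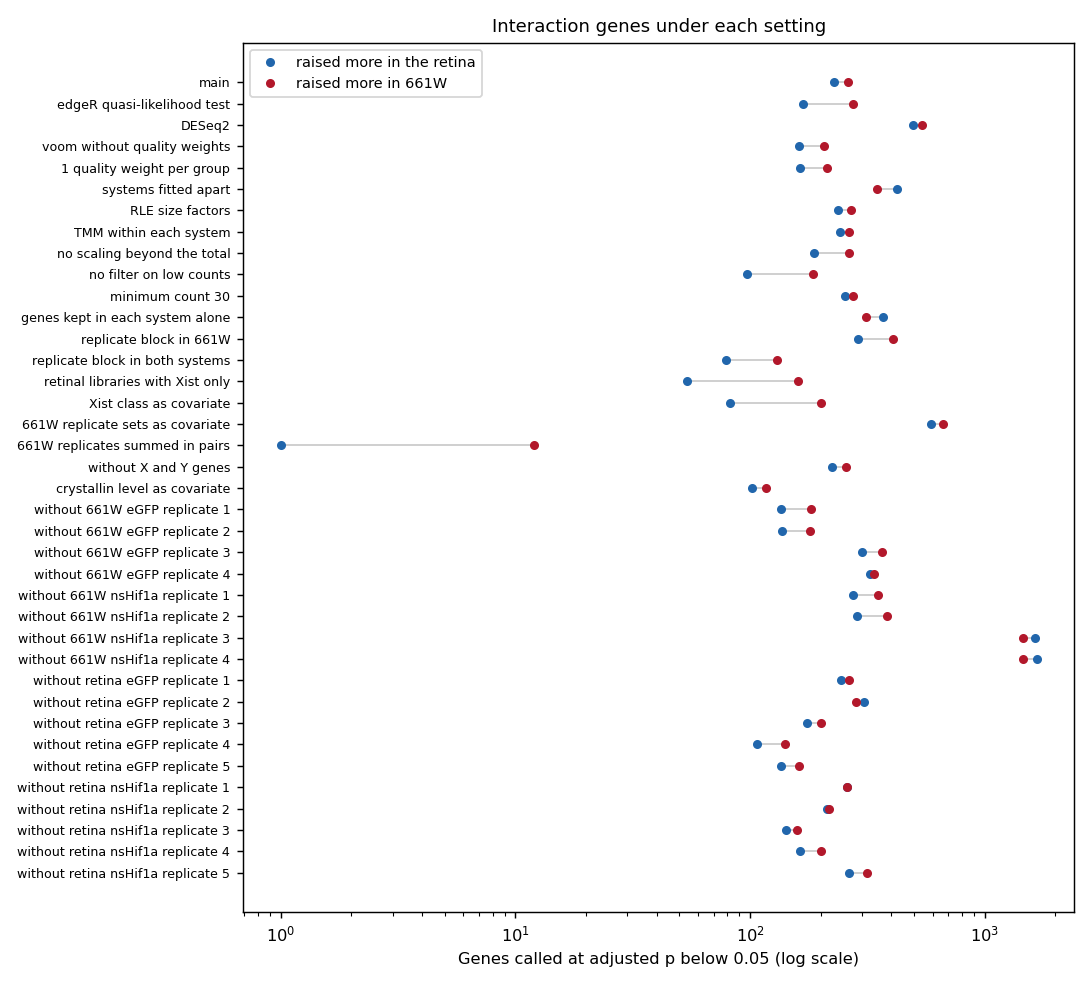
The number of genes called in the interaction (x axis, log scale) is given for each of the 37 alternatives and the main fit, in blue for genes raised more in the retina and in red for those raised more in 661W. Summing the 661W libraries in pairs gave the fewest calls (1 and 12), and leaving out nsHif1a 661W library 4 gave the most (3113 in all).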

How the data were processed

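RNA was measured in 10 retinal and 8 661W libraries. Per the study's methods, the authors made stranded mRNA libraries, aligned reads to GRCm39 with Rsubread 2.18.0 and counted them by strand with featureCounts on gencode release 36. The deposited values are raw counts per gene, and replicates were not pooled. Both tables were joined by gene identifier, and positions were taken from gencode release 39. Groups followed the labels. Genes were filtered with filterByExpr (minimum count 10, edgeR 4.0.16 in R 4.3.3), scaled by TMM and fitted over all 18 libraries with limma 3.58.1 (voom with quality weights) on 4 group means. P-values were adjusted by Benjamini-Hochberg over 20999 genes. Intervals are 95%, and counting intervals cover counting error only. P-values measure the spread between these libraries, which may be technical in 661W. Alternatives included edgeR, DESeq2 1.42.0, other scalings, filters and covariates, and leaving out each library. On simulated counts limma recovered 55 of 100 interactions of 2-fold and 69 of 100 of 4-fold, with 4 false calls among the unchanged genes. The simulated libraries were independent and held no 661W sets and no differences in Xist or crystallins. The number of false calls therefore does not carry over to the real libraries.

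In 661W the correlations of deviations between libraries of the same number were 0.162, 0.169, 0.177 and 0.183. Across numbers they were 0.197 and 0.175 for libraries 1 and 2, and 0.171 and 0.181 for libraries 3 and 4. The numbers thus did not pair the 661W libraries beyond these sets, although 1 alternative blocked by number. In the retina the correlations between libraries of the same number were -0.095, 0.125, 0.090, -0.028 and -0.098, and the numbers did not pair the samples. Named genes were Hif1a, the 10 largest called differences in each direction among genes whose groups did not overlap in the system with the larger effect, genes raised in both systems that were called or were among the 10 smallest differences, genes with opposite responses, called members of the gene lists, and up to 3 called genes for each pair of starting levels. The members and lists were chosen with earlier results of these data known.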

Additional observations from a re-analysis of the deposited data

Results flagged for a closer look

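The 58 called genes that were named had effects of nsHif1a that differed between retina and 661W by the interaction test in limma. On the log2 scale (retina minus 661W), the differences of genes raised more in 661W were Stc1 -5.70, Atp7b -5.57, Frem2 -5.18, Tph1 -4.45, Kctd16 -4.09, Ppp1r3c -4.0, Tafa2 -4.0, Nos2 -3.89, Gpr35 -3.77, Car9 -3.43, Gm57952 -3.35, Hif1a -3.29, Ifnb1 -3.29, Mgarp -3.20, Traf3ip3 -3.06, Mc1r -3.01 and Rnf152 -2.98.
The smaller differences in the same direction were Gm42923 -2.96, Epm2a -2.84, Ak4 -1.40, Slc2a3 -1.36, Vldlr -1.31, AW011738 -1.16, Pdk1 -0.95, Ndrg1 -0.90, Bnip3 -0.90, Slc16a3 -0.86, Slc6a9 -0.84, Eno2 -0.70, Stbd1 -0.65, Flt1 -0.65, Bhlhe40 -0.50, Vhl -0.36 and Kdm4b -0.31.
For genes raised more in the retina the differences were Gpi1 0.29, Gapdh 0.29, Eno1 0.35, Ccnd1 0.40, Ier3 0.62, Egln1 0.89, Fosl2 0.99, Junb 1.13, Lif 1.22, Egln3 1.91, Stc2 1.97, Zdhhc14 2.29, Gm53543 2.32, Uts2r 2.37, Gm37795 2.40, Ccl8 2.42, Gm66184 2.56, 1700001L05Rik 2.61, Aplnr 3.02, Gm9655 3.51, Gm35215 4.19, H2-Q2 4.32, Adm 4.59 and Adm2 5.21.

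A library stood far from the others of its group in 14 of 227 groups tested by Dixon's criterion, which chance alone passes in about 1 of 20. In the retina the separate libraries were nsHif1a 3 for Atp7b (15.3 CPM), nsHif1a 5 for Gm57952 (14.9 CPM), Gem (44.3 CPM) and Adm2 (9.13 CPM), nsHif1a 1 for Higd1a (81.8 CPM), eGFP 1 for Ppp1r3b (3.55 CPM), and eGFP 2 for Egln3 (12.3 CPM) and H2-Q2 (0.996 CPM). In 661W they were nsHif1a 4 for Nos2 (6.01 CPM) and Ifnb1 (5.04 CPM), nsHif1a 2 for Stbd1 (27.6 CPM), nsHif1a 1 for Vhl (42.0 CPM), and eGFP 2 for Pdk1 (12.1 CPM) and Ccnd1 (60.9 CPM).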

How the results depend on the processing

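The count of genes called in the interaction (227 raised more in the retina and 262 in 661W) moved with the model. DESeq2 gave 497 and 538 (1035 in all), systems fitted apart 421 in the retina direction (768 in all), no count filter 97 (282 in all), and genes kept in each system alone 368. With the replicate block in 661W 405 were raised more in 661W, with 530 genes up and 57 down within 661W, and with the block in both systems 79 and 130 were called (209 in all), with 78 down in the retina and 460 up in 661W. Apart from the calls given in the report, the block in 661W ended no call of a named gene. Xist-positive retinas alone gave 54 and 160 (214 in all, 153 up in the retina), Xist class as covariate 82 in the retina direction (283 in all, 154 up in the retina) and the crystallin covariate 102 and 117 (219 in all). With the 661W sets as covariate 589 and 666 were called (1255 in all), with 709 up and 142 down in 661W, and with summed pairs 1 and 12 (13 in all), with 58 up and 0 down in 661W. A threshold of 0.5 on the difference left 88 and 172 genes, and 1 left 27 and 100.

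Genes that fell in the retina numbered 80 in edgeR and 67 when kept in each system alone. Genes that fell in 661W numbered 50 in DESeq2, 47 without quality weights, 52 with 1 weight per group, 10 with systems apart and 92 without a filter. Without a filter the Hif1a difference was -3.35 (adjusted p = 0.221). With high set per kilobase, 16 and 119 genes raised more in 661W and in the retina were high in both. Silence up to 0 counts left 11 and 0 genes, and up to 10 counts 65 and 12. Without a fold threshold within a system, 154 genes were raised in 661W alone and 145 in the retina alone.

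Without 1 library at a time, 107 to 1664 genes were raised more in the retina, 141 to 1456 in 661W and 248 to 3113 in all, 182 to 401 rose and 122 to 245 fell in the retina, 220 to 1407 rose and 23 to 762 fell in 661W, and the Hif1a difference was -3.50 to -2.96. Signs turned for genes with about equal effects. With Xist-positive retinas alone Atf3 was at 0.010, Plod2 at -0.043 and Phospho1 at -0.082, with Xist class as covariate at 0.017, -0.048 and -0.085, and with the crystallin covariate Atf3 was at 0.24, Slc2a1 at 0.081 and Gem at 0.064. Without 1 library at a time the difference was -0.28 to 0.023 for Vegfa, -0.34 to 0.071 for Atf3, -0.15 to 0.074 for Slc2a1, -0.29 to 0.14 for Gem, -0.015 to 0.19 for P4ha2, -0.088 to 0.32 for Higd1a, -0.044 to 0.29 for Plod2 and -0.028 to 0.35 for Gm9790. The cause of these shifts was not tested.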

Other observations

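Across the 18 fits without a library, 90 of the 227 genes raised more in the retina and 107 of the 262 raised more in 661W were called every time. The genes called in every alternative were Samd1 in the retina direction and Rnf152, Cth, Slc2a3, Tenm4, Atp7b, Stc1, Ccn4 and Vldlr in the 661W direction. Samd1, Cth, Tenm4 and Ccn4 were named after their values were seen. Samd1, a protein that binds unmethylated CpG islands, was at 12.7 and 20.8 CPM in eGFP and nsHif1a retinas and at 29.5 and 28.2 CPM in 661W, a difference of 0.75 (SE 0.10, adjusted p = 0.00048 in limma).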
